A study of Rattus norvegicus with 20 samples.

Results

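The genes described here are 10 genes of the circadian clock: the activators Arntl (also called Bmal1) and Npas2, the period genes Per1, Per2 and Per3, the nuclear receptors Nr1d1 and Nr1d2, the output factors Dbp and Tef, and the opposing factor Nfil3. They were taken by gene name, with earlier results of these data known, and are 10 of the 26214 gene names on the array. Every probe that carries one of these names was taken, which gave 16 probes on 44 spots per array. Of these, 15 were tested, and each of the 10 genes kept at least 1 tested probe. The other probe, for Per3, was well above background on 8 of 20 arrays only.

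Total RNA of whole mesenteric artery, the vessel bed that feeds the intestine, was measured in 20 samples, 1 per single-colour array, in 5 groups of 4. The groups were untreated WKY/Izm (Wistar-Kyoto, the normotensive strain), WKY/Izm with the 2-kidney 1-clip operation (2K1C, both kidneys kept), WKY/Izm with the 1-kidney 1-clip operation (1K1C, a single kidney kept), untreated SHR/Izm (spontaneously hypertensive) and untreated SHRSP/Izm (stroke-prone spontaneously hypertensive). The labels give an age of 6 weeks for all 20 samples and 3 weeks for the operation, and call the arrays biological replicates; the control group is untreated, and a sham operation is not mentioned. The hour at which tissue was taken and the sex of the rats are not given in the sources used here. Whole vessel RNA was measured, so fewer cells of a type and less RNA per cell cannot be told apart.

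In most cells of the body a transcriptional feedback loop keeps daily time. Arntl pairs with Clock or its relative Npas2 and switches on genes that carry an E-box; among these are the Per genes, whose products block the pair, and Nr1d1 and Nr1d2, which code for the REV-ERB receptors that repress Arntl. Dbp and Tef are activators that bind D-boxes in output genes, and Nfil3 represses through the same element. In blood vessels the loop is known to set daily rhythms in tone and metabolism, and genes of its different arms are known to peak at different hours.

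Levels are given as log2 of the processed signal minus the 75th percentile of the same array, so that 0 is the level of the probe at that percentile. A level describes a probe and is not compared between probes. Where a gene had several probes, the brightest one stands for it. Some of the probe sequences are shown here in lower case, 5′ to 3′ in the sense of the transcript. Positions are on rat build rn4 as the array files give them, and those files assign each probe to the RefSeq transcript of its gene. For Dbp and Arntl the sequence shown is that of a second probe, not of the brightest one that stands for the gene.
Nfil3: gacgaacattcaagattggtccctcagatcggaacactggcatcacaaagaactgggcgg
Nr1d1: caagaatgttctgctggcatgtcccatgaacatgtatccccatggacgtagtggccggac
Dbp, second probe: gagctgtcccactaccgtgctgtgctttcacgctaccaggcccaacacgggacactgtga
Arntl, second probe: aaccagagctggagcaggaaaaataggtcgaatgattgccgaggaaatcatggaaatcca
Npas2, brighter probe: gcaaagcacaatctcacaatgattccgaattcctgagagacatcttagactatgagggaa
Npas2, dimmer probe: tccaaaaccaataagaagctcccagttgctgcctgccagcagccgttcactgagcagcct
The Nfil3 probe lies at chr17:18107192-18107251 on the plus strand. The Nr1d1 probe lies at chr10:87543165-87543519 on the minus strand, where its 60 bases span 355 bases of the genome. The second Dbp probe lies at chr1:96178148-96178207 on the plus strand and the second Arntl probe at chr1:171154767-171154826 on the plus strand. The Npas2 probes lie at chr9:38433884-38433943 on the plus strand, and chr9:38417496-38417555 on the plus strand, with 16328 bases between them; they are shown because they gave different results.

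On each array 66.5% to 71.7% of the spots other than controls were well above background and no spot was saturated; precision is limited by the number of arrays. The arrays lay on 3 slides: 2K1C alone on slide 1, 1K1C and untreated WKY on slide 2, and SHR and SHRSP on slide 3. The comparisons within a slide were those of 1K1C with untreated WKY and of SHRSP with SHR, each group in its own row, so that row and group cannot be told apart there; in the other comparisons slide and group cannot be told apart. Smooth muscle markers (7 of 7 measured) were present in every group, with array means of the log2 level from 0.31 to 4.57 and the lowest in replicate 2 of 1K1C. Endothelial markers (7 of 7) ran from -0.31 to 0.96. They were at -0.31, 0.03, -0.21 and 0.81 in untreated WKY replicates 1 to 4. Their range was 0.07 to 0.65 in 2K1C, -0.05 to 0.74 in 1K1C, 0.39 to 0.73 in SHR and 0.16 to 0.96 in SHRSP. The part of these markers in the clock gene values was not tested.

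Replicates 2 and 3 of untreated WKY stood apart from the other 18 arrays in several clock genes, and the leading results against that group are given below with and without them. The 2 arrays resembled each other over all tested probes, with a correlation of 0.991 against 0.951 to 0.971 for the other pairs of that group. In none of the 10 marker lists were these the 2 highest or the 2 lowest of the 20 arrays. Neuronal markers (5 of 7 measured) had array means of 4.99, 0.97, 1.55 and -0.58 in untreated WKY replicates 1 to 4, and mesothelial markers (3 of 4) had -4.30, -0.26, -1.42 and -3.87. Replicate 1 of SHR, at 0.085, and replicate 2 of 1K1C, at -0.76, were as high in mesothelial markers. Erythroid markers (4 of 5) were at 1.65 and 1.54 on replicates 2 and 3 and at 0.64 and 0.60 on replicates 1 and 4. White adipocyte markers (6 of 6) were at 2.15 and 2.03 on replicates 2 and 3 and at 0.59 and 1.35 on replicates 1 and 4, and macrophage markers (5 of 5) at -0.52 and -0.70 against -1.89 and -1.04. Brown adipocyte markers (4 of 6) were at 2.75 in replicate 1, the highest of all 20 arrays, and at -0.62, -1.24 and -1.86 in replicates 2 to 4. Exocrine pancreas markers (7 of 7) ran from -6.05 in replicate 3 to 1.03 in replicate 1. The part of these markers in the clock gene values was not tested.

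Against untreated WKY, Nfil3 was higher in both SHR and SHRSP, and in SHRSP Npas2 was higher and Nr1d1 lower. No clock gene passed the test in either renal clip group, between SHRSP and SHR, or between the clip groups. No clock gene passed against untreated WKY in any group when replicates 2 and 3 of it were left out (limma). In that fit 3 of 10 had an unadjusted p under 0.05 in SHR, 3 of 10 in SHRSP and 0 of 10 in each clip group. The share of all probes at an unadjusted p under 0.05 was not computed for it. The median SD over the 10 genes was above that over all 18873 tested probes in every group but SHR, where it was 0.27 against 0.29. It was 0.45 against 0.31 in 2K1C, 0.34 against 0.28 in 1K1C and 0.28 against 0.20 in SHRSP. Untreated WKY had the widest spread in these genes, at 0.57 against 0.29. In the plot of levels by group, the open symbols of replicates 2 and 3 of untreated WKY mark much of that spread.

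**Figure D1:**
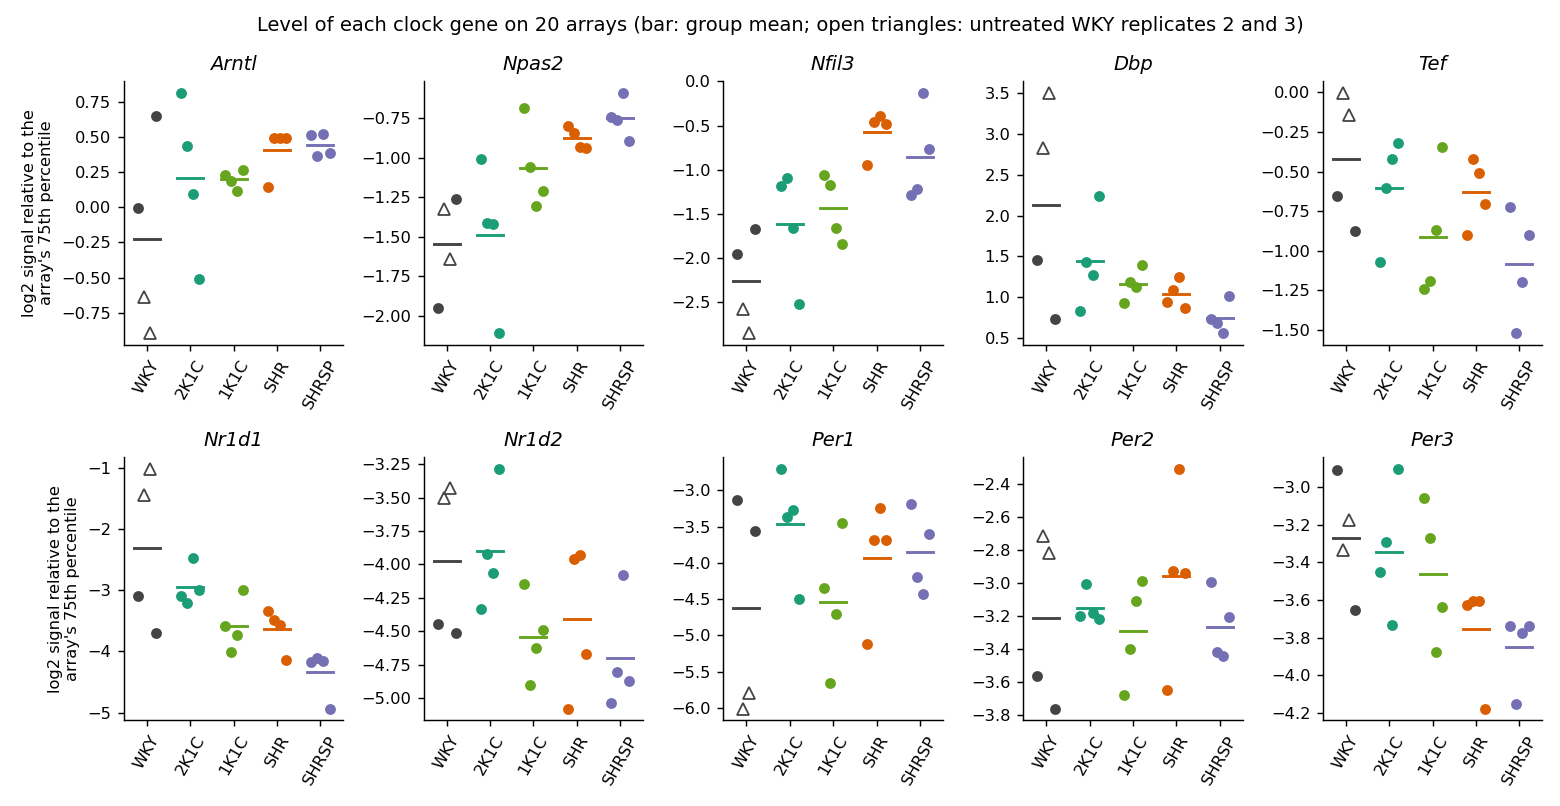
Level of each of the 10 clock genes (log2 signal relative to the array's 75th percentile, y axis; scales differ between panels) on every array of the 5 groups, with a bar at each group mean of 4 arrays. Open triangles are untreated WKY replicates 2 and 3, which reach 2.83 and 3.50 for Dbp while the other 2 arrays of that group are at 1.45 and 0.73.

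Arntl codes for the activator at the centre of the loop. Its levels in untreated WKY were -0.01, -0.64, -0.89 and 0.65, which holds both the lowest value and the second highest of all 20 arrays. In 2K1C they were 0.82, 0.44, 0.09 and -0.51, and in 1K1C 0.23, 0.19, 0.12 and 0.26. SHR had 0.15, 0.49, 0.49 and 0.50, and SHRSP 0.52, 0.37, 0.52 and 0.39. Both strains lay within the range of the untreated WKY arrays, while their own arrays lay close together, with an SD of 0.17 in SHR and 0.08 in SHRSP against 0.69 in untreated WKY. The differences from untreated WKY were 0.63 ± 0.28 (SE) in SHR and 0.67 ± 0.28 in SHRSP, and neither passed the test (limma, Benjamini-Hochberg adjusted p = 0.3197 and 0.2326). With replicates 2 and 3 of untreated WKY left out, they were 0.08 and 0.12. The second Arntl probe, 7142 bases away, gave 0.46 and 0.54 with all 4 control arrays and 0.0030 and 0.08 without those 2.

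Npas2, which can take the place of Clock as the partner of Arntl, was higher in SHRSP. Its levels were -1.95, -1.33, -1.64 and -1.26 in untreated WKY, -1.01, -1.41, -1.42 and -2.11 in 2K1C, and -0.69, -1.06, -1.30 and -1.21 in 1K1C. In SHR they were -0.80, -0.85, -0.93 and -0.94, and in SHRSP -0.75, -0.76, -0.59 and -0.89. All 8 arrays of the 2 strains lay above all 4 untreated WKY arrays. The difference in SHRSP was 0.80 ± 0.20, or 1.74-fold (adjusted p = 0.04156), and in SHR it was 0.67 ± 0.20 (adjusted p = 0.1043). The size was no smaller without the control arrays that stood apart: it was then 0.86 in SHRSP and 0.73 in SHR, with adjusted p = 0.1896 and 0.3074 against the 2 control arrays left. The SHRSP call was also lost on leaving out any single array of the 2 groups other than untreated WKY replicate 4 (adjusted p from 0.0594 to 0.1325). The dimmer Npas2 probe did not share the difference, at 0.02 ± 0.16 in SHRSP and 0.14 ± 0.16 in SHR, and at -0.02 and 0.11 without untreated WKY replicates 2 and 3.

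Per1, a period gene that is also known to respond to hormones and acute stimuli, was dim, and 17 of 20 arrays were well above background. Untreated WKY had -3.13, -6.01, -5.80 and -3.55, the lower 2 of them, replicates 2 and 3, not well above background. In 2K1C the levels were -2.70, -3.37, -3.28 and -4.50, and in 1K1C -4.35, -5.65, -4.70 and -3.45, where replicate 2 was not well above background. SHR had -5.12, -3.69, -3.25 and -3.68, and SHRSP -3.19, -4.19, -4.42 and -3.60. All 4 other groups overlapped untreated WKY. The largest difference was in 2K1C, at 1.16 ± 0.63 (adjusted p = 0.2815), and without untreated WKY replicates 2 and 3 it was -0.12. In SHR and SHRSP the difference went from 0.69 and 0.77 to -0.59 and -0.51 without those arrays. Per1 had one of the widest spreads on the arrays, with an SD of 1.49 in untreated WKY, at percentile 97.5 of the tested probes.

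Immediate early genes, a class that responds fast to acute stimuli, were set beside Per1. Of 16 listed genes 15 were measured, and their mean level per array ran from -1.70 to -0.74 in untreated WKY, with the lowest in replicates 3 and 2, from -0.87 to 0.77 in 2K1C, from -1.58 to -0.74 in 1K1C, from -0.79 to 0.28 in SHR and from -0.29 to 0.68 in SHRSP. Against untreated WKY, 15 of 15 were higher in SHR (median 0.97), 14 of 15 in SHRSP (median 1.52) and 14 of 15 in 2K1C (median 1.33), where the medians of all genes were 0.02, 0.0036 and 0.03. In 1K1C 12 of 15 were higher, with a median of 0.22 against 0.10 for all genes, and none passed the test (limma; 1 at an unadjusted p under 0.05). The test was passed by Btg2, Zfp36 and Maff in SHR, by Btg2, Zfp36 and Ccn1 (Cyr61) in SHRSP, and by Ier2 in 2K1C (1.34 ± 0.20, limma adjusted p = 0.0366). Over all probes 1.72% passed in SHR, 2.41% in SHRSP and 0.0106% in 2K1C. The medians without untreated WKY replicates 2 and 3 were 0.84 in SHR, 1.36 in SHRSP, 0.76 in 2K1C and 0.07 in 1K1C, and the only call among the 15 in these comparisons was Btg2 in SHRSP at 1.83 (adjusted p = 0.01803). Their part in the Per1 values was not tested.

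Per2 and Per3 code for the other period proteins. Per2 was at -3.56, -2.72, -2.82 and -3.76 in untreated WKY, where replicates 2 and 3 were the higher 2, and between -3.67 and -2.31 in the other groups. The Per2 group means lay between -3.29 and -2.96, and no difference passed the test; the largest of the 4 from untreated WKY was 0.26 ± 0.26 in SHR. On leaving out untreated WKY replicates 2 and 3 that difference was 0.70 (adjusted p = 0.3758). Per3 was at -2.91, -3.33, -3.18 and -3.65 in untreated WKY and at -3.74, -4.15, -3.77 and -3.74 in SHRSP, so that every SHRSP array lay below every untreated WKY array. SHR, at -3.63, -3.60, -3.61 and -4.18, overlapped untreated WKY through replicate 4 of WKY only. The Per3 difference was -0.58 ± 0.21 in SHRSP and -0.49 ± 0.21 in SHR (adjusted p = 0.1758 and 0.3205). It was almost the same without untreated WKY replicates 2 and 3, at -0.57 and -0.47. A second Per3 probe gave -0.86 ± 0.29 in SHRSP (adjusted p = 0.1461), and -0.52 without those arrays. On the remaining Per3 probe, which was not tested, no SHRSP array was well above background. In untreated WKY only replicates 2 and 3 were, at -4.71 and -4.45. Replicates 1 and 4 were at -6.21 and -5.64, and SHRSP ran from -6.56 to -6.13. With the lowest signal well above background put in for the SHRSP arrays, the untreated WKY mean was 1.49-fold higher there. That mean kept replicates 1 and 4 at their measured values, though neither was well above background. The value thus rests on replicates 2 and 3 of untreated WKY, and it was not computed without them.

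Nr1d1, the REV-ERB alpha gene and a direct target of Arntl, had the widest range of the 10 genes, 3.92 log2 units between its lowest and highest array. In untreated WKY it was at -3.09, -1.44, -1.01 and -3.70. In 2K1C it was at -3.10, -3.21, -2.48 and -2.99, and in 1K1C at -3.59, -4.00, -3.72 and -2.99. In SHR it was at -3.34, -3.49, -3.57 and -4.13, and in SHRSP at -4.17, -4.11, -4.15 and -4.93. Every SHRSP array lay below every untreated WKY array. The 2 highest values of all were untreated WKY replicates 2 and 3. The difference in SHRSP was -2.03 ± 0.44, or 4.09-fold lower (adjusted p = 0.01922). It was -0.94 ± 0.32 without those 2 arrays (adjusted p = 0.2753), a size 0.465 times the first. The call was also lost without untreated WKY replicate 2 or 3 alone or without SHRSP replicate 4 (adjusted p from 0.06396 to 0.07496). In SHR it was -1.32 ± 0.44 (adjusted p = 0.1553) and -0.24 without them.

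Nr1d2 codes for the second REV-ERB receptor and had the same 2 high arrays, at -4.44, -3.50, -3.42 and -4.52 in untreated WKY. It ran from -4.33 to -3.28 in 2K1C, where replicate 4 was the highest of all 20 arrays, from -4.90 to -4.15 in 1K1C, from -5.08 to -3.93 in SHR and from -5.04 to -4.08 in SHRSP. The groups overlapped throughout. The largest difference was -0.73 ± 0.32 in SHRSP (adjusted p = 0.2634), and -0.22 without untreated WKY replicates 2 and 3.

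Dbp is a direct Arntl target whose product activates D-box genes. Its levels in untreated WKY were 1.45, 2.83, 3.50 and 0.73. They were 0.84, 1.43, 1.28 and 2.24 in 2K1C and 0.93, 1.18, 1.12 and 1.39 in 1K1C. In SHR they were 0.95, 1.09, 1.25 and 0.87, and in SHRSP 0.73, 0.69, 0.56 and 1.01. Replicates 2 and 3 of untreated WKY were the highest 2 arrays, followed by replicate 4 of 2K1C, and the other 17 arrays lay between 0.56 and 1.45. Untreated WKY overlapped all other groups. By group mean the order was untreated WKY 2.13 ± 1.26 (SD, n = 4), 2K1C 1.45 ± 0.59, 1K1C 1.16 ± 0.19, SHR 1.04 ± 0.17 and SHRSP 0.75 ± 0.19, and no neighbours in that order differed beyond their spread. The difference was -1.38 ± 0.42 in SHRSP and -1.09 ± 0.42 in SHR (adjusted p = 0.1023 and 0.2382), and -0.34 and -0.05 without untreated WKY replicates 2 and 3. The other 2 Dbp probes behaved like the first, with -1.54 and -1.51 in SHRSP, and -0.47 and -0.40 without those 2 arrays.

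Tef, a relative of Dbp that binds the same element, moved over a narrower range. It was at -0.65, -0.0043, -0.14 and -0.88 in untreated WKY, with replicates 2 and 3 again highest of all 20 arrays. It ran from -1.07 to -0.32 in 2K1C, from -1.24 to -0.34 in 1K1C, from -0.90 to -0.42 in SHR and from -1.52 to -0.73 in SHRSP, and all groups overlapped. The largest difference was -0.67 ± 0.24 in SHRSP (adjusted p = 0.1695), and -0.32 without untreated WKY replicates 2 and 3.

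Nfil3 codes for the repressor that competes with Dbp and Tef at D-boxes, and it is also known to be induced by cytokines and glucocorticoids. In untreated WKY it was at -1.95, -2.58, -2.84 and -1.67. In 2K1C it was at -1.18, -1.09, -1.66 and -2.52, and in 1K1C at -1.06, -1.17, -1.66 and -1.85. In SHR it was at -0.94, -0.46, -0.40 and -0.48, and in SHRSP at -1.29, -1.22, -0.13 and -0.76. All 8 arrays of the 2 strains lay above all 4 untreated WKY arrays, and SHR also lay above all 8 arrays of the clip groups. The difference was 1.69 ± 0.33 in SHR, or 3.23-fold (adjusted p = 0.01142), and 1.41 ± 0.33 in SHRSP, or 2.66-fold (adjusted p = 0.0289). Without untreated WKY replicates 2 and 3 it was 1.24 ± 0.38 and 0.96 ± 0.38, and neither passed the test against the 2 control arrays left (adjusted p = 0.2147 and 0.4057). The SHR call held without any single array other than untreated WKY replicate 3, where the difference was 1.50 (adjusted p = 0.05423). The SHRSP call was lost without untreated WKY replicate 2 or 3 or SHRSP replicate 3 or 4 (adjusted p from 0.07019 to 0.1208).

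Glucocorticoid-responsive genes were set beside Nfil3. All 12 listed genes were measured, and their array means ran from -0.20 to -0.05 in untreated WKY and from 0.33 to 0.90 in SHR. An unadjusted limma p under 0.05 was found in SHR for 8 of 12, and for 13.9% of all probes. In SHR 11 of 12 were higher than in untreated WKY, with a median of 0.85 against 0.02 for all genes. Of these 1 of 12 passed the test, Errfi1, a feedback inhibitor of EGF receptor signalling, at 2.14 ± 0.42 (adjusted p = 0.01313), where 1.72% of all probes passed. Without untreated WKY replicates 2 and 3, 12 of 12 were higher with a median of 0.76, and Errfi1 was at 1.70 (adjusted p = 0.2078). In SHRSP the array means ran from -0.22 to 0.49, and 0 of 12 passed the test against untreated WKY (limma, with 2 at an unadjusted p under 0.05). In the clip groups 0 of 12 of these genes passed (limma). There 8 of 12 were higher in 2K1C and 6 of 12 in 1K1C, with medians of 0.26 and 0.04 against 0.03 and 0.10 for all genes. Their part in the Nfil3 values was not tested.

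**Figure D2:**
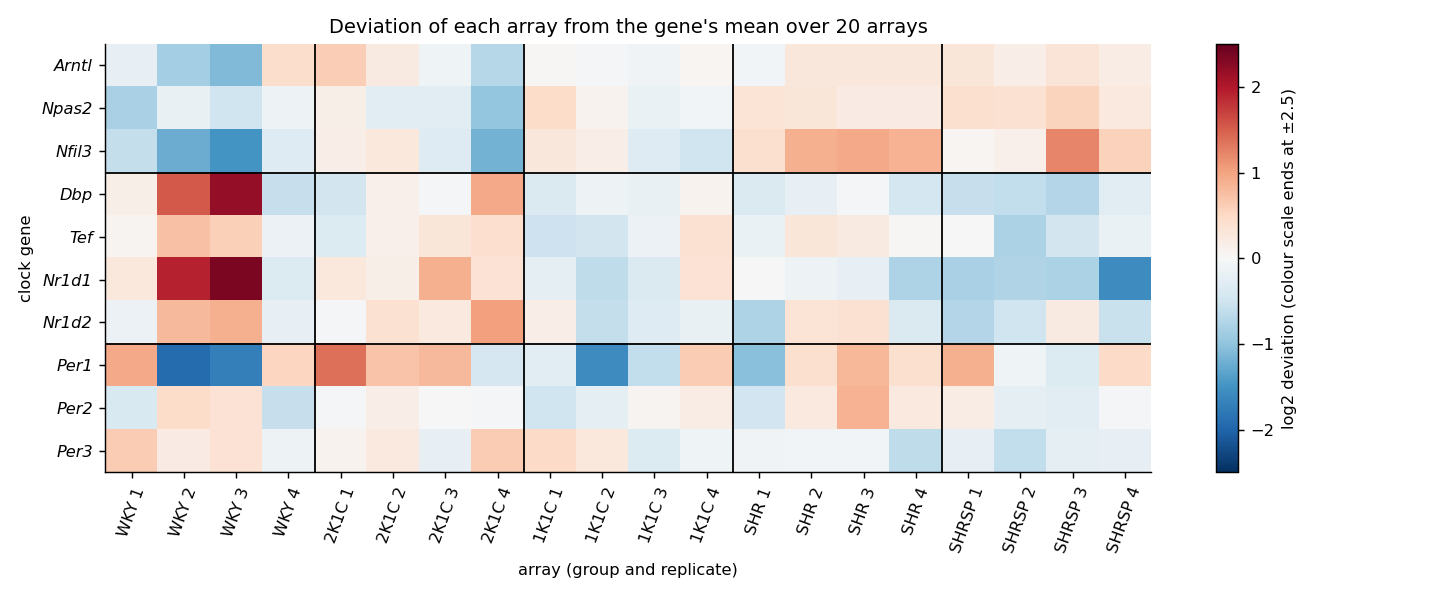
Deviation of each array from the mean of its gene over 20 arrays (log2, colour; red is above and blue below the mean), with genes in rows and arrays in columns by group and replicate. Untreated WKY replicates 2 and 3 are low in Arntl, Nfil3 and Per1 and high in Dbp, Nr1d1, Nr1d2 and Tef, and 2K1C replicate 4 has the same signs in those genes.

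SHR was compared with untreated WKY to ask which vessel transcripts accompany inherited hypertension. Of the 10 clock genes, 5 were higher and 5 lower in SHR, with a median of 0.02. The only clock gene that passed the test was Nfil3, which was higher. Over all tested probes 1.72% passed, and 0.774% passed and were higher. A further 5 clock genes had an unadjusted p under 0.05: Arntl, Npas2, Per3, Nr1d1 and Dbp. Over all probes that share was 13.9%. Groups did not overlap for Npas2 and Nfil3, 2 of 10, and for 6.16% of all probes. The median size of the difference was 0.65 for the clock genes and 0.20 for all probes. Leaving out untreated WKY replicates 2 and 3 left 3 clock genes, Npas2, Per2 and Nfil3, at an unadjusted p under 0.05. Of these, Per2 was not under 0.05 with all 4 control arrays. The test was then passed by 0 of 10 clock genes and 102 of 18873 probes. Leaving out untreated WKY replicate 4 in place of those arrays gave 4: Arntl (0.92), Nr1d1 (-1.79), Dbp (-1.56) and Nfil3.

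SHRSP carries a more severe inherited hypertension and was compared with the same untreated WKY arrays. Here 4 clock genes were higher and 6 lower, with a median of -0.32 against 0.0039 for all probes. Nfil3, Npas2 and Nr1d1 passed the test, 3 of 10, where 2.41% of all probes passed. With only these 2 groups in the fit 0 of 10 passed, with adjusted p from 0.07567 to 0.1401 for the same 3 genes. Npas2 missed without a filter on dim probes (adjusted p = 0.06545) and Nr1d1 without scaling (adjusted p = 0.05494). The 2 higher calls stood beside 1.19% of probes called higher, and the 1 lower call beside 1.22% called lower. Unadjusted p was under 0.05 for 8 of 10, all but Per1 and Per2, and for 16.8% of all probes. Groups did not overlap for Npas2 and Nfil3 (higher) and Per3 and Nr1d1 (lower), 4 of 10, against 11.4% of all probes. Leaving out untreated WKY replicates 2 and 3 left 3 clock genes, Npas2, Nr1d1 and Nfil3, at an unadjusted p under 0.05. The test was then passed by 0 of 10 clock genes and 119 of 18873 probes. The count was also 0 without untreated WKY replicate 2 or 3 alone or SHRSP replicate 4, was 1 without SHRSP replicate 3, and was 5 without untreated WKY replicate 4, when Arntl (0.96) and Dbp (-1.84) joined.

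SHR and SHRSP share their untreated WKY controls, so that their differences from WKY are not independent of each other. Compared directly, on the same slide, 3 clock genes were higher and 7 lower in SHRSP than in SHR, with a median of -0.28. No clock gene passed the test (limma, 0 of 10), where 0.36% of all probes did. An unadjusted p under 0.05 was found for 0 of 10, and for 3.61% of all probes. The groups overlapped for every clock gene, and did not overlap for 3.48% of all probes. The largest difference was that of Nr1d1, at -0.71 ± 0.44 (SE; adjusted p = 1.0), followed by Tef at -0.45 ± 0.24. The difference in Nfil3 was -0.28 ± 0.33, in Npas2 0.13 ± 0.20 and in Arntl 0.04 ± 0.28. With SEs from 0.20 to 0.63 over the 10 genes, a miss of the test does not show that the strains were alike.

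**Figure D3:**
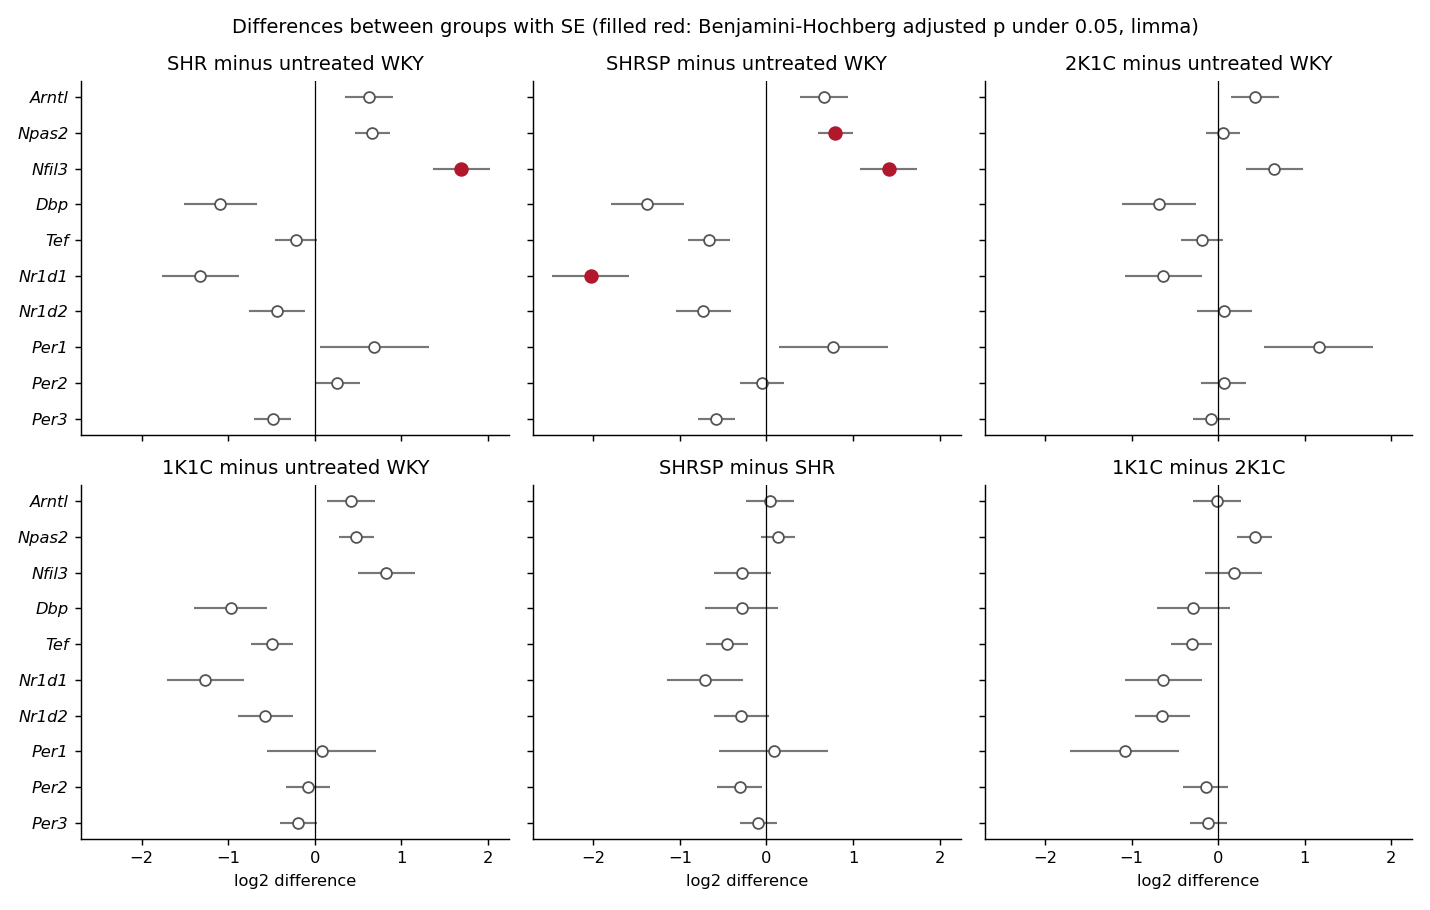
Log2 difference of each clock gene (x axis, points with SE bars) in 6 comparisons of groups of 4 arrays. Filled red points passed the test: Nfil3 in SHR at 1.69, and Nfil3 at 1.41, Npas2 at 0.80 and Nr1d1 at -2.03 in SHRSP, while all open points did not.

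The clip operations raise pressure in WKY rats through the kidney, and both groups were compared with untreated WKY. In 2K1C, 6 clock genes were higher and 4 lower, with a median of 0.06. None passed the test (limma, 0 of 10, and 0 of 10 at an unadjusted p under 0.05), where 0.0106% of all probes passed and 21.9% had an unadjusted p under 0.05. The groups overlapped for every clock gene, against 7.92% of probes without overlap. Per1 (1.16), Dbp (-0.68), Nfil3 (0.65 ± 0.33, adjusted p = 0.2565) and Nr1d1 (-0.63) had the largest values. Nfil3 was at 0.20, and Dbp at 0.35 and Nr1d1 at 0.45 with the opposite sign, without untreated WKY replicates 2 and 3. Replicate 4 of 2K1C was the array of its group with the lowest Arntl, Npas2, Nfil3 and Per1 and the highest Dbp, Tef, Nr1d2 and Per3. That array also had a lymphocyte marker mean (3 of 6 measured) of 3.11, where the other 3 ran from -5.18 to -1.26; the part of these cells in its clock values was not tested.

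In 1K1C, which shared slide 2 with untreated WKY, 4 clock genes were higher and 6 lower, with a median of -0.14 against 0.10 for all probes. None passed the test (limma, 0 of 10). An unadjusted p under 0.05 was found for Npas2 (0.48), Nr1d1 (-1.26), Dbp (-0.97) and Nfil3 (0.83), 4 of 10. Of all probes 0.0% passed, and 9.04% had an unadjusted p under 0.05. The groups overlapped for every clock gene and did not for 3.76% of probes. Without untreated WKY replicates 2 and 3, Nr1d1 was at -0.18, Dbp at 0.07 and Nfil3 at 0.38, while Npas2 stayed at 0.54. Leaving out untreated WKY replicate 4 alone gave 1 call, Nr1d1 at -1.73 (adjusted p = 0.03459).

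Against each other the clip groups did not differ in any clock gene by the test (limma, 0 of 10). Of the 10, 2 were higher and 8 lower in 1K1C than in 2K1C, with a median of -0.21. The only unadjusted p under 0.05 was that of Npas2, at 0.42 ± 0.20 (limma adjusted p = 0.2358), 1 of 10 against 21.1% of all probes. On the dimmer Npas2 probe the group means were -2.98 in 1K1C and -3.09 in 2K1C. No clock gene had groups without overlap, against 9.55% of all probes, and 0.0% of all probes passed the test. The largest difference was in Per1, at -1.08 ± 0.63.

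**Figure D4:**
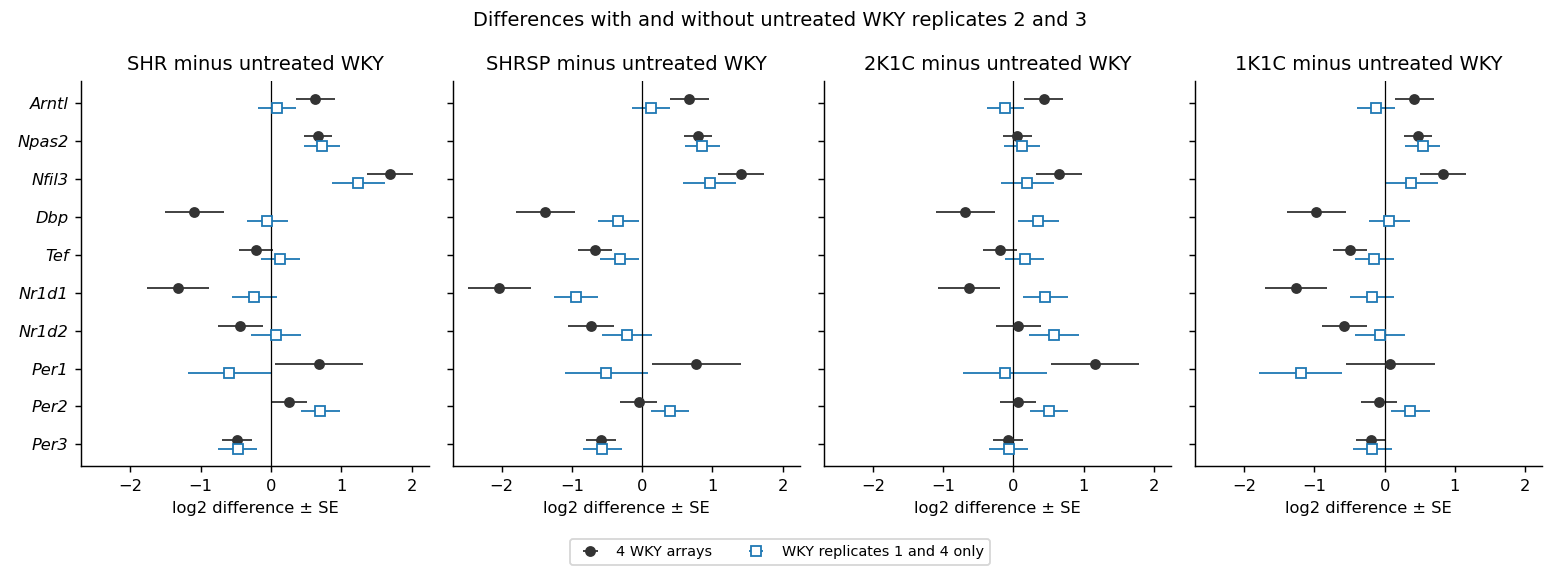
Log2 differences from untreated WKY (x axis, with SE bars) with all 4 control arrays (filled circles) and with untreated WKY replicates 1 and 4 only (open squares). Arntl, Dbp and Nr1d1 move towards 0 in SHR, SHRSP and 1K1C, whereas Npas2 and Per3 hardly move.

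Over the 20 arrays the clock genes formed opposing sets. Arntl, Npas2 and Nfil3 varied together, with Pearson's r from 0.63 to 0.80 in 3 of 3 pairs. Dbp, Tef, Nr1d1 and Nr1d2 did so as well, with r from 0.63 to 0.86 in 6 of 6 pairs. All 12 pairs between these sets had r below 0, from -0.91 to -0.44. The 24 pairs with a Per gene were divided, 12 above and 12 below 0, from -0.60 to 0.71. Without untreated WKY replicates 2 and 3 the signs were the same in those 21 pairs without a Per gene, with r from -0.83 to -0.15 between the sets. After subtracting group means, 11 of 12 pairs between the sets were below 0.

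Of the 45 pairs, 7 were tested by permutation (two-sided, 100000 resamples), and p-values were adjusted over the 7 by Benjamini-Hochberg. Arntl and Dbp had r = -0.91 and Spearman's rho = -0.77 (permutation p = 1e-05, the smallest these resamples can give; adjusted p = 7e-05, and 0.00049 for rho). Dbp and Nr1d1 had r = 0.86 and rho = 0.77 (permutation, adjusted p = 0.000122). Arntl and Nfil3 had r = 0.80 and rho = 0.62, and Nfil3 and Dbp r = -0.78 and rho = -0.56 (permutation, adjusted p = 0.000122 for each r). For Arntl and Nr1d1 r was -0.75 and rho -0.61 (permutation, adjusted p = 0.000686), and for Arntl and Npas2 r was 0.63 and rho 0.59 (permutation, adjusted p = 0.0044). Arntl and Per2 showed no relation that passed the test, with r = -0.19 and rho = -0.08 (permutation, adjusted p = 0.422). The plots of gene pairs show how far the 2 untreated WKY arrays reach along these relations.

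**Figure D5:**
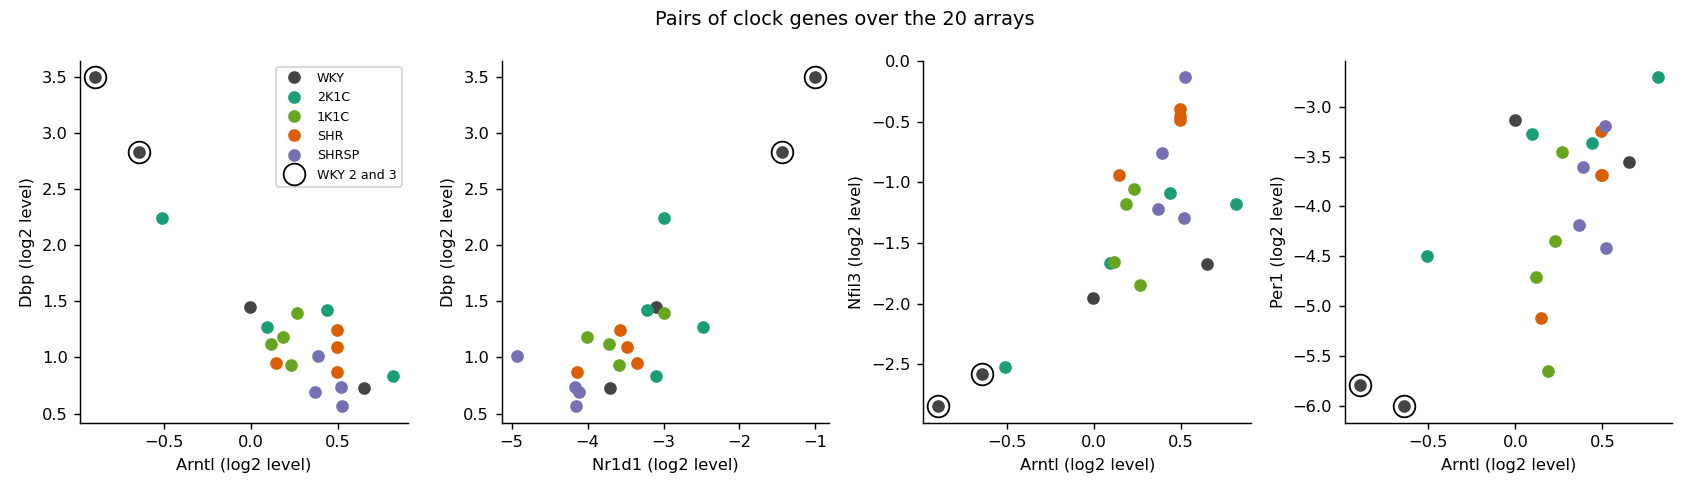
Log2 levels of pairs of clock genes on the 20 arrays (1 point per array, coloured by group), with rings around untreated WKY replicates 2 and 3. The ringed arrays are at the end of each relation; for Arntl and Dbp r is -0.91 with them and -0.78 without them.

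Untreated WKY replicates 2 and 3 were also the 2 arrays farthest from the median in Arntl, Dbp and Nfil3 alike, and leaving them out gave r = -0.78 for Arntl and Dbp, 0.55 for Dbp and Nr1d1, 0.64 for Arntl and Nfil3, -0.62 for Nfil3 and Dbp and 0.66 for Arntl and Npas2, each past the test by r. By rho, Arntl with Dbp and Dbp with Nr1d1 passed (permutation, adjusted p = 0.00927 each). For Arntl and Nr1d1, leaving them out gave r = -0.36 and rho = -0.47 (permutation, adjusted p = 0.165 and 0.0713). By r this relation passed with those 2 arrays and not without them. By rho, Arntl with Nfil3, Arntl with Npas2 and Nfil3 with Dbp did not pass either without them (permutation, adjusted p from 0.0713 to 0.121). Within slide 2, which holds untreated WKY and 1K1C, r was -0.97 for Arntl and Dbp, 0.97 for Dbp and Nr1d1 and -0.91 for Arntl and Nr1d1. It was -0.90 for Nfil3 and Dbp and 0.82 for Arntl and Nfil3. The adjusted p ran from 0.00469 to 0.0223 for all of these (exact permutation over 8 arrays). Those 8 arrays include untreated WKY replicates 2 and 3, the lowest 2 there in Arntl and the highest 2 in Dbp. Slide 2 was not tested without them. There Arntl and Npas2 had r = 0.42 (exact permutation, adjusted p = 0.299), and Arntl and Per2 r = -0.77 (exact permutation, adjusted p = 0.0223). Within slide 3, which holds SHR and SHRSP, none of the 7 relations passed the test (exact permutation, adjusted p from 0.827 to 0.924). There r was -0.09 for Arntl and Dbp, 0.35 for Dbp and Nr1d1, 0.42 for Arntl and Nfil3 and 0.22 for Nfil3 and Dbp. On that slide the SD within a group was at most 0.17 for Arntl and at most 0.19 for Dbp, while in SHRSP it was 0.53 for Nfil3 and 0.39 for Nr1d1. After subtracting group means the 6 relations that passed over 20 arrays passed again by r. The permutation there moved values freely between groups, and the SD of Dbp was 1.26 in untreated WKY but 0.17 in SHR. The p-values after subtracting group means are therefore approximate. By rho, Arntl with Npas2 (permutation, adjusted p = 0.254) and Dbp with Nr1d1 (permutation, adjusted p = 0.08) then did not pass, and within slide 2 no relation passed by rho (exact permutation, adjusted p from 0.0538 to 0.197).

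The promoters of 4 of these genes are shown because they hold letters of the elements through which the loop is known to act. All 10 genes matched the RefSeq table of promoters on build GRCr8, with 11 entries, since Nr1d1 has 2 start sites there; each entry runs from 250 bases before to 50 after a start. Both strands were searched for CACGTG (E-box), CACGTT (E-box variant), TTATGTAA or TTACGTAA (D-box) and TAGGTCA (the core bound by REV-ERB and ROR receptors), and capitals mark the matches.
Nr1d1, start site 2: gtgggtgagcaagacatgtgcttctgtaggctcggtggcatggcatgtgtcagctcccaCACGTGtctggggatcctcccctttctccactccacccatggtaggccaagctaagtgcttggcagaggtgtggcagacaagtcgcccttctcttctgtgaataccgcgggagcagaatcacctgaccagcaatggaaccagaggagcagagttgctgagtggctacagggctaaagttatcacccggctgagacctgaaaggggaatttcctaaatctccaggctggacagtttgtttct
Nr1d1, start site 1: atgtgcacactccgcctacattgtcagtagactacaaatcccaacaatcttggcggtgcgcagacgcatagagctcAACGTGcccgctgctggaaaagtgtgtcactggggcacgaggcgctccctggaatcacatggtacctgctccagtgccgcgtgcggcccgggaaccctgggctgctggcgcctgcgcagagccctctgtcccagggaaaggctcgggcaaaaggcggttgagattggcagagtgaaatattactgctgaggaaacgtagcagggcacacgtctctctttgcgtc
Tef: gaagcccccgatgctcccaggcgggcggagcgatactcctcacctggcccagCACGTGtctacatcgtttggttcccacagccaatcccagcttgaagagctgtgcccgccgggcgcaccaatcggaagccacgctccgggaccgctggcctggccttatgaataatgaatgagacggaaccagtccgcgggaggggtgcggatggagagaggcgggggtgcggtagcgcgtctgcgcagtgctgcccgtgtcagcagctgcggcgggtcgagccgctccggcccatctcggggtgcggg
Per2: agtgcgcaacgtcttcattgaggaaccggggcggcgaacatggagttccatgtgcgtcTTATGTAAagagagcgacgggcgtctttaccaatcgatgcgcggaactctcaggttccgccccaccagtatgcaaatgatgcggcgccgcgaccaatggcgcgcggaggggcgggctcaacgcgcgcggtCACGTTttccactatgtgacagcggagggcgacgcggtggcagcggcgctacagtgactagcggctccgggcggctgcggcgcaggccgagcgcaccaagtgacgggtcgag
Arntl: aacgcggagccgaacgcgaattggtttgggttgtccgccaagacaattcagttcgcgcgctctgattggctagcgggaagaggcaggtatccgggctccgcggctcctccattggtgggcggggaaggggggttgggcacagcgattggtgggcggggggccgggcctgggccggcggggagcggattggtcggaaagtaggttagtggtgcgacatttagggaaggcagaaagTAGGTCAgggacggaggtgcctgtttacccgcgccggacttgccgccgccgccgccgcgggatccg
These lie at chr10:84229405-84229704, minus strand; chr10:84231763-84232062, minus strand; chr7:115206577-115206876, plus strand; chr9:99496944-99497243, minus strand; and chr1:176766078-176766377, plus strand. The E-box stood in the promoters of Nr1d1 (start site 2, first base at -191 from the start) and Tef (at -198), 2 of 10 genes, and in 6.42% of 33469 rat promoters of the same length. Its variant stood in Per2 (at -62) and Nr1d1 (start site 1, at -174, on the opposite strand), 2 of 10, and in 4.83% of all promoters. The D-box stood in Per2 (at -192), 1 of 10, and in 1.01% of all. The REV-ERB and ROR core stood in Arntl (at -16), 1 of 10, and in 2.63% of all. No searched letters were found in these windows for the other 6 genes, which says nothing about elements outside them.

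Among 10421 genes with a symbol, the gene most opposed to Arntl over the 20 arrays was Dbp itself (r = -0.91), with Nr1d1 at place 29 from the bottom and Nfil3 at place 36 from the top. Genes most like Arntl were Msx1 (r = 0.94, and 0.87 without untreated WKY replicates 2 and 3), Snx18 (0.90), Lcat (0.88), Ralgdsl3 (0.88) and Scara3 (0.88). After Dbp, those most opposed were Cox6a2 (-0.89), Narf (-0.84), Bdh1 (-0.84) and Hpgd (-0.84). These correlations are over the same 20 arrays, share their libraries and the 2 arrays that stood apart, and are given as a description.

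Genes most like Dbp were Bco2 (r = 0.92), Prss30 (0.90), Egln3 (0.90), Cox6a2 (0.89) and Bdh1 (0.89), with Nr1d1 at place 10 and Tef at place 42 of 10421. For Bco2 r was 0.65 and for Bdh1 0.84 without untreated WKY replicates 2 and 3. Most opposed to Dbp were Arntl (-0.91), Msx1 (-0.88), Scara3 (-0.83), Ralgdsl3 (-0.82) and Gli1 (-0.82). Msx1 and Bdh1 were thus at opposite ends for Arntl and for Dbp.

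Genes most like Nfil3 were Itih3 (r = 0.90), Procr (0.87), Errfi1 (0.84), Il15 (0.84) and Il3ra (0.84), with Arntl at place 17 and Npas2 at place 34. Without untreated WKY replicates 2 and 3, r for Itih3 was 0.85 and for Procr 0.81. After subtracting group means r was 0.85 for Itih3 and 0.62 for Il3ra. Most opposed were Ttc39c (-0.82), Lzts1 (-0.81), Glrx (-0.80), Bcap29 (-0.79) and Bdh1 (-0.78).

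Other genes of the loop showed no call. Of 17 listed genes 11 were measured, among them Clock, the usual partner of Arntl, and the cryptochrome repressors Cry1 and Cry2. None passed the test in any of the 6 comparisons (limma), and their array means ran from -2.28 to -1.76 over all 20 arrays. In SHRSP 8 of 11 were higher and 3 lower than in untreated WKY, with a median of 0.13, and the largest difference was that of Cry1 at 0.79 ± 0.26 (adjusted p = 0.121; unadjusted p under 0.05 for Cry1 and Clock). In SHR 6 of 11 were higher, with Cry1 at 0.51 ± 0.26 and Cry2 at -0.45 ± 0.19 (adjusted p = 0.3952 and 0.2776; unadjusted p under 0.05 for Cry2). In the other comparisons unadjusted p was under 0.05 for Timeless in 2K1C and Cry1 in 1K1C, both against untreated WKY. Cry1 was at 0.40 in SHRSP and 0.11 in SHR, and Cry2 at -0.57 in SHR, without untreated WKY replicates 2 and 3, with 0 of 11 called in any group (limma; 1 at an unadjusted p under 0.05 in SHR and 1 in 1K1C).

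Known output genes of the clock outside the 10, such as Usp2, Wee1, Nampt and Klf9, were all measured, 10 of 10. None passed the test against untreated WKY in any of the 4 groups (limma). An unadjusted limma p under 0.05 was found for 5 of 10 in SHR, 4 in SHRSP, 3 in 2K1C and 0 in 1K1C. Over all probes those shares were 13.9%, 16.8%, 21.9% and 9.04%. In SHR 7 of 10 were higher, with a median of 0.51, and Nampt, which makes a precursor of NAD, was at -0.84 ± 0.24 (adjusted p = 0.08947). On leaving out untreated WKY replicates 2 and 3 the median in SHR was 0.54 and Nampt was at -0.52, and 0 of 10 passed in any of the 4 groups (limma; 5 at an unadjusted p under 0.05 in SHR and 0 in the others). In SHRSP against SHR 8 of 10 were lower, with a median of -0.38. Of these, Tsc22d3 (Gilz), a target of the glucocorticoid receptor, passed the test at -0.90 ± 0.18 (limma, adjusted p = 0.02482). Over all probes 0.36% passed in that comparison.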

How the data were processed

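Cy3-labelled total RNA was hybridised to Agilent 60-mer arrays, 1 sample per array. The deposited intensity of each spot is a processed signal, which per the file headers is background-subtracted and linear. The submitters' processing notes name Agilent Feature Extraction 10.7.3.1. The deposited value table matched this intensity in every spot, so its scale is linear and uncentred (array medians from 59.7 to 134), and with a single colour no direction arises.

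Groups came from the sample titles. The deposited intensity was divided by its 75th percentile on the array (controls apart) and taken to log2; 4259 control spots and 301 to 684 outlier spots per array were left out, and spots of a probe were averaged. Of 30367 probes, 18873 had all 4 arrays of some group well above background and were fitted over all 5 groups with lmFit and eBayes (limma 3.58.1, R 4.3.3; residual 15 and prior 2.63 degrees of freedom), with two-sided p-values adjusted by Benjamini-Hochberg over all probes of a comparison. A probe passed the test at an adjusted p under 0.05. The fit was tested on simulated data. Correlations used scipy 1.17.1. All probes of the 10 genes are reported, and the genes named beside them are the called members of lists and, for Arntl, Dbp and Nfil3, the 5 highest and 5 lowest correlations; others among those lists were named after their values were seen. An accession matched a current symbol for 18355 probes, and the other probes kept the files' name.

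The 10 genes, lists and motifs were chosen with earlier results of these data known. Alternatives were scaling, background correction, filters, 1 probe per gene, the groups in the fit, a replicate block and leaving out each array; leaving out untreated WKY replicates 2 and 3 together was chosen after seeing the data.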

Additional observations from a re-analysis of the deposited data

Results flagged for a closer look

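In 6 of 50 sets of 4 arrays (10 genes in 5 groups), 1 array lay farther from the other 3 than Dixon's 95% critical value allows, where chance gives about 1 in 20 sets. Arntl was at 0.15 in SHR replicate 1, below 0.49 to 0.50 in the other 3 arrays. Nfil3 was lowest on the same array, at -0.94 against -0.48 to -0.40. That array had smooth muscle markers at 2.33, against 4.13 to 4.48 on the other SHR arrays, and white adipocyte markers at 2.46, against 0.77 to 1.07. Per3 was at -4.18 in SHR replicate 4, below -3.63 to -3.60, and at -4.15 in SHRSP replicate 2, below -3.77 to -3.74. Nr1d1 was at -4.93 in SHRSP replicate 4, below -4.17 to -4.11. That array had lymphocyte markers at 1.37, against -4.78 to -3.60 on the other SHRSP arrays, and exocrine pancreas markers at -5.13, against -0.59 to 1.77. The part of these markers in the flagged values was not tested. Per2 was at -3.01 in 2K1C replicate 2, above -3.22 to -3.18. No set of untreated WKY was among them. The rule looks for a single array, and in several genes replicates 2 and 3 there lay apart as a pair. In Npas2 and Per3 they lay between replicates 1 and 4.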

How the results depend on the processing

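Nfil3 in SHR passed the test under quantile normalization, median scaling, normexp with quantile normalization, unscaled values, both filters, 1 probe per gene, the replicate block and the fit of the 2 groups alone. The number of clock genes called in SHR against untreated WKY was 1, but 0 without untreated WKY replicates 2 and 3 together and 0 to 4 on leaving out single arrays. For SHRSP against untreated WKY it was 3, but 1 with the replicate block (Nr1d1), 0 with only the 2 groups compared, 0 without untreated WKY replicates 2 and 3 together and 0 to 5 on leaving out single arrays. The 2-group fit has fewer samples. For 1K1C it was 0, and 0 to 1 on leaving out single arrays. The other 3 comparisons gave 0 throughout, including with the replicate block. The replicate numbers did not pair samples: deviations of same-numbered arrays correlated at 0.00022 on average over 40 pairs, from -0.56 to 0.63. Nr1d1 in SHRSP had an adjusted p of 0.05494 without scaling and Npas2 in SHRSP of 0.06545 without a filter; limma was used for each, and the cause was not tested. Within slide 3, r of Nfil3 and Dbp was 0.22, the reverse of -0.78 over 20 arrays, and the cause was not tested. Of 720 probe differences recomputed without a single array 15 lost and 11 gained a call, and of 828 under the other alternatives 11 lost and 0 gained one; among differences not called, 87 changed sign. Scaling moved the median difference of all probes by over 0.1 in places, to 0.12 for SHR with median scaling, and to 0.17 for SHRSP and -0.19 for 2K1C without scaling. Probes called in SHR numbered 325, and 144 without scaling, 204 where all 20 arrays had to be well above background and 117 with the 2 groups alone; in SHRSP they numbered 454, and 241, 325 and 184. Per1 and the dimmer Per3 probes lay near background on some arrays, which limits their values.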

Other observations

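On the slide shared by SHR and SHRSP, 11 of 12 glucocorticoid-responsive genes were lower in SHRSP than in SHR, with a median of -0.51 against -0.01 for all genes. Tsc22d3 (-0.90 ± 0.18, limma adjusted p = 0.02482) was the only one that passed the test, where 0.36% of all probes passed. This is the call already given among the clock outputs, since Tsc22d3, Klf9 and Pdk4 were in both lists. For the 10 clock genes the same comparison gave 7 lower and a median of -0.28. Immediate early genes went the other way there, with 11 of 15 higher in SHRSP, a median of 0.34 and no call (limma, 0 of 15, with 2 at an unadjusted p under 0.05).

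The spread of clock genes within groups differed between genes. In untreated WKY, Nr1d1 (SD 1.29) and Dbp (SD 1.26) lay at percentiles 96.5 and 96.4 of all tested probes, while Npas2 (SD 0.32) lay at 55.7. In SHRSP, Arntl lay at percentile 10.8 and Nfil3 at 90.5. In 1K1C, Arntl had an SD of 0.06, at percentile 2.29, and Per1 one of 0.91, at percentile 95.2.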
